A study of Mus musculus with 6 samples.

Results

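Tyrosine and dual-specificity phosphatases were followed in sorted mouse thymocytes with and without a knockout of Tcf7, which encodes the transcription factor TCF-1. The set held every gene of the count table whose symbol begins with Ptpn and a digit, Ptpr and a letter, or Dusp and a digit. That gave 62 of the 26332 genes, namely 21 receptor-type tyrosine phosphatases, 17 non-receptor tyrosine phosphatases, 10 MAP kinase phosphatases and 14 atypical dual-specificity phosphatases. The Tcf7 knockout (KO) group was 2 C57BL/6 mice, of which KO 1 was male and KO 2 female. The wild type (WT) group was 4 C57BL/6 mice, of which WT 1, WT 2 and WT 3 were female and WT 4 male. The design text states that each library came from its own mouse. Per the labels' protocols, double negative 3 (DN3) cells were sorted from pressed thymi as CD25 positive cells that lacked CD44, CD8, TCRβ, NK1.1, CD3 and CD1d tetramer staining. Neither the ages nor how the Tcf7 allele was disrupted was given in the sources used here.

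Protein tyrosine phosphatases remove phosphate from tyrosine and so set the resting level and the duration of kinase signals. Receptor-type members span the membrane, and CD45, the product of Ptprc, keeps the kinase Lck active in T cells by removing an inhibitory phosphate. Among the non-receptor members, SHP-1 (Ptpn6) and SHP-2 (Ptpn11) dock on phosphorylated receptors through SH2 domains, while PEP (Ptpn22) and TC-PTP (Ptpn2) act on Lck and on Janus kinases. Dual-specificity phosphatases of the MAP kinase phosphatase class remove phosphate from both tyrosine and threonine of ERK, p38 and JNK, and many are themselves induced by the signal they switch off. DN3 is the stage at which signals through the pre-T-cell receptor and Notch decide whether a thymocyte goes on.

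Depth was 19589938 and 13673860 counts in KO 1 and KO 2, against 23711513 to 41666797 in WT. Tcf7 stood at 1133 and 1022 CPM in KO 1 and KO 2, against 2094 to 2326 CPM in WT (log2 -1.05, SE 0.0857, adjusted p = 0.00127 by edgeR's quasi-likelihood test), so transcripts were still counted in both KO libraries. Here CPM is the count scaled by the TMM-normalised library size. All 11 DN3 markers were counted in both KO libraries. Together they summed to 8892 and 8965 CPM in KO 1 and KO 2, below the 10648 to 11434 CPM in WT. At an adjusted p under 0.05, 5 of the 11 fell (45.5%, where 16.5% of all genes did), 1 rose and 5 were not called. In 6 of the 11 both KO libraries lay below the WT range, where 28.6% of all genes did. Markers of other cells also moved with the genotype. The 12 B-cell markers summed to 815 and 1199.7 CPM in KO 1 and KO 2, against 257 to 287 CPM in WT. Of these, 9 were counted in KO 1 and 12 in KO 2, and 7 of the 9 tested lay above WT in both KO libraries. Of the defining ones, Ms4a1 and Pax5 were at 0 in KO 1 and at 36.0 and 7.54 CPM in KO 2. The 9 markers of αβ T cells past DN3 summed to 1340.0 and 3067 CPM in KO 1 and KO 2, against 719.7 to 854 CPM in WT. The 12 myeloid markers summed to 9.88 and 15.6 CPM, against 39.3 to 48.9 CPM in WT. The 10 NK or ILC markers (316 and 329 CPM, against 195 to 204 CPM in WT) and the 8 γδ T-cell markers (2408 and 2145 CPM, against 1793 to 1881 CPM) also lay above WT in both KO libraries, and the 9 markers of thymic stroma (190.5 and 188 CPM, against 257 to 275 CPM) below it. The 7 dendritic markers (5.32 and 24.5 CPM, against 12.0 to 14.7 CPM in WT) and the 5 erythroid markers (2.56 and 26.8 CPM, against 3.41 to 12.7 CPM) lay below WT in KO 1 and above it in KO 2. The part of these other cells in the results below was not tested, and in bulk RNA a change in the mix of cells and a change per cell cannot be told apart.

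Of the 62 phosphatase genes, 42 had enough counts to be tested and 20 did not. Of these 42, 14 rose and 6 fell in KO at an adjusted p under 0.05, 47.6% of those tested, where 30.7% of all 13294 genes tested were called. In KO 33.3% of the tested phosphatase genes rose, where 14.1% of all genes did, and 14.3% fell, where 16.5% of all genes did. Members with enough counts in only the higher group pass the count filter, so these shares describe the tested members and not the family. Both KO libraries lay above the WT range for 15 of the 42 and below it for 9, where 22.9% of all genes lay above and 28.6% below (51.5% in all), and 18 overlapped. The median log2 fold change was 0.19 over the 42 and -0.04 over all genes tested. By fitted fold change the first 4 rises were those of the FERM-domain phosphatase Ptpn14, the low-count Ptprn2, the FERM-domain phosphatase Ptpn13 and Dusp10. The falls included the immediate-early phosphatase Dusp1, Dusp23, Dusp15, Ptprk and Ptpn3. Of 15 listed members with textbook roles in lymphocyte signalling, 5 rose (Ptprj, Ptpn6, Dusp6, Dusp10 and Dusp22), 1 fell (Dusp1) and 9 were not called (Ptprc, Ptpn2, Ptpn7, Ptpn11, Ptpn22, Dusp2, Dusp4, Dusp5 and Dusp16).

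**Figure D1:**
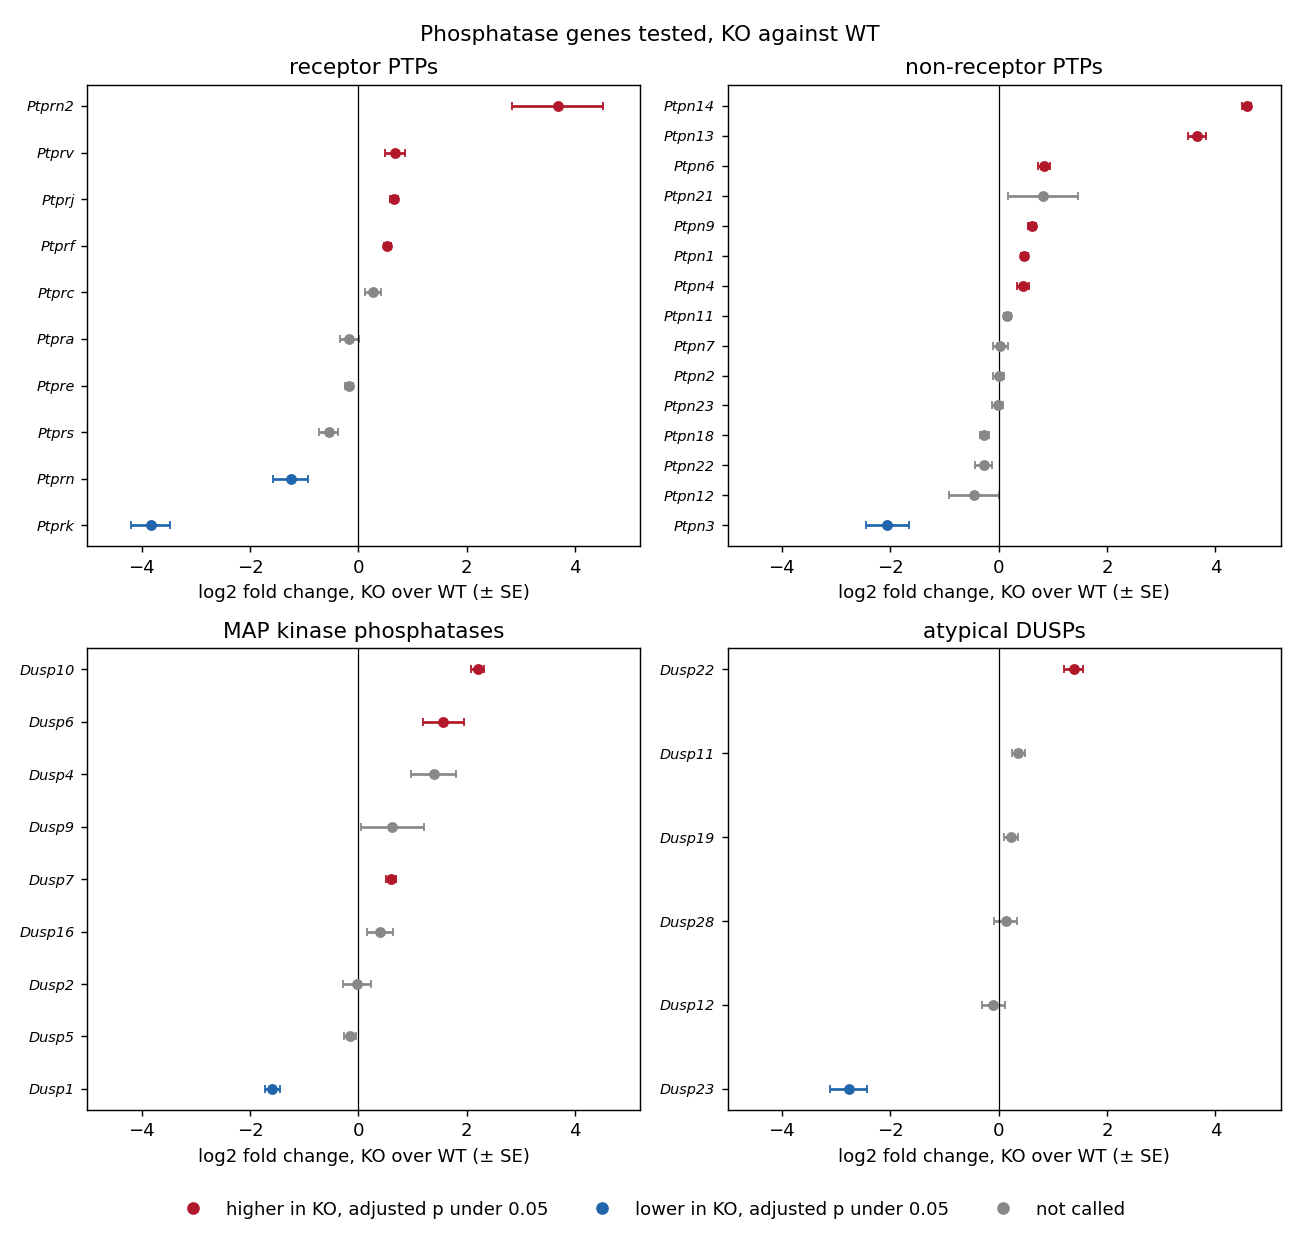
Log2 fold change of KO over WT with its standard error for the tested phosphatase genes with at least 1 KO count, in 4 panels by class. Red points rose and blue points fell at an adjusted p under 0.05, and grey points were not called. Ptpn14 (4.57) and Ptpn13 (3.67) lie farthest to the right among the non-receptor class, and Ptprk (-3.83) farthest to the left among the receptor class. Dusp15 and Dusp18, with no KO count, are not drawn.

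The KO libraries differed from each other more than the WT libraries did. In 28 of the 42 tested genes the gap between KO 1 and KO 2 on the log2(CPM + 0.5) scale was larger than the whole range of the 4 WT libraries. The median gap was 0.48, against a median WT range of 0.26. Relative to the WT mean, KO 1 and KO 2 lay on the same side for 29 genes and on opposite sides for 13. Neither count was set against all genes. Over the whole table the KO libraries were also farther apart (chi-square per degree of freedom 104) than any WT pair (3.37 to 23.1), so the gap is not particular to the phosphatases. The KO effect differed between the male and the female pair of genotypes in 24 of the 42 by an interaction term, where 54.7% of all genes did, and with 1 KO mouse of each sex, sex and mouse cannot be told apart. Of the 20 called genes, 19 had both KO libraries on the same side, and the exception was Ptpn4. When each genotype was given its own weight for this spread (limma-voom), 6 of the 20 calls were kept, for Ptpn14, Ptpn13, Dusp10, Ptpn6, Ptprf and Dusp1.

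**Figure D2:**
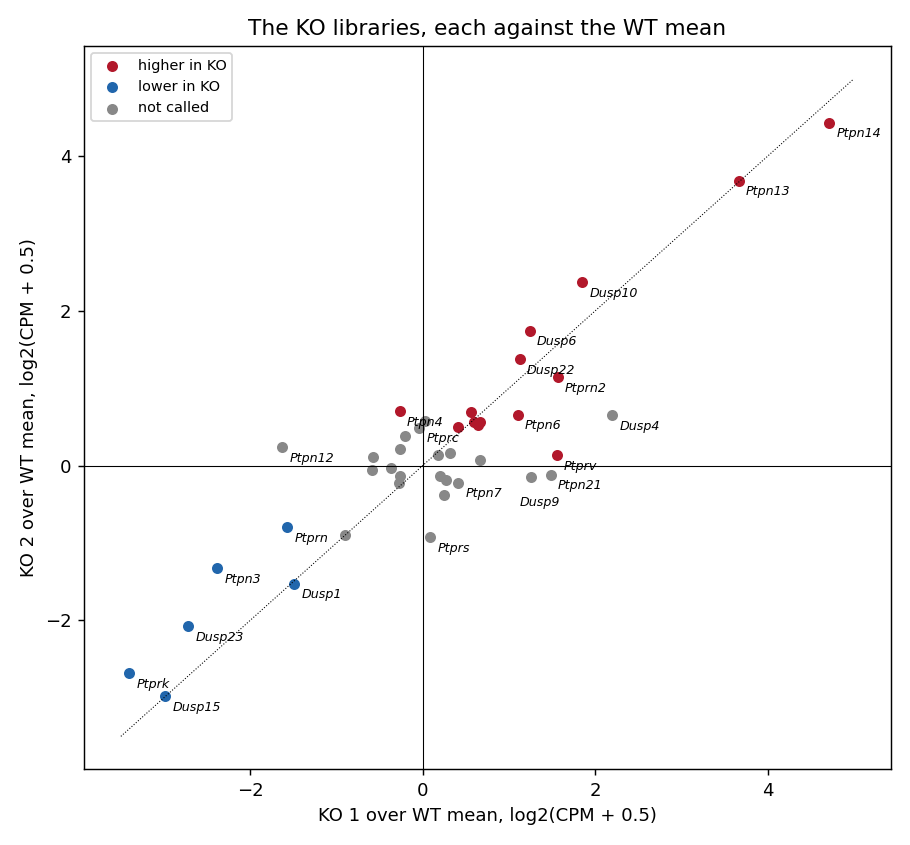
Each point is 1 tested phosphatase gene, with the log2 ratio of KO 1 to the WT mean on the x axis and of KO 2 to the WT mean on the y axis, both from CPM + 0.5. The dotted line marks equal ratios. Ptpn14, Ptpn13 and Dusp1 lie near the line, and Dusp4, Ptpn12, Ptpn21 and Dusp9 lie away from it.

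Leaving out 1 library could also change what was compared, because sex stayed in the model. Without KO 2, the male KO 1 was in effect compared with WT 4 alone, the only WT male. Without KO 1, and also without WT 4, KO 2 was in effect compared with the females WT 1, WT 2 and WT 3. The fits without KO 1 and without WT 4 thus made the same comparison and are not separate checks. All of these fits rested on 1 KO library, which was assumed to vary like WT. The same holds for their log2 changes given below. Without WT 1, WT 2 or WT 3, 10 members rose and 4 fell in each case and 12.6 to 13.2% of all genes were called. All 20 called genes kept their direction without KO 1 and without KO 2.

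Levels were compared between genes only per length, as RPKM (CPM per kilobase of the deposited gene length). Ptprc had the highest mean level among the phosphatases in both genotypes, 198 RPKM in KO and 166 ± 8.98 RPKM in WT (SD, n = 4). In KO it was followed by Ptpn6 (147), Ptpn7 (127), Ptprf (75.8) and Dusp2 (56.5 RPKM). In WT the order was Ptpn7 (116 ± 4.34), Ptpn6 (78.8 ± 1.84), Dusp2 (56.7 ± 15.8), Ptpn18 (52.7 ± 3.06) and Ptprf (50.5 ± 5.66 RPKM). In KO 1 Ptpn6 (169 RPKM) stood above Ptprc (162) and Ptpn7 (154), and in KO 2 Ptprc (234) stood above Ptpn6 (124) and Ptpn7 (99.4 RPKM), so the order of these 3 is not set in KO. In WT the ranges over libraries of Ptprc, Ptpn7 and Ptpn6 did not overlap each other. Dusp2 reached 80.1 RPKM in WT 4 and so overlapped Ptpn6, and Ptpn18, Ptprf and Dusp5 overlapped Dusp2, so the order from Ptpn6 down is not set in WT. Ptpn14 ranked 11 of the 42 tested genes in KO and 33 in WT. All phosphatase genes together summed to 5036 and 5062 CPM in KO 1 and KO 2, against 3638 to 3992 CPM in WT, 1.35 times as much by the means. In CPM, which weigh long genes more, Ptpn14 made up 29.2% of that difference, and Ptprf 14.8%, Ptprc 13.7%, Ptpn6 12.5% and Ptpn13 11.6%. These shares are not per length and do not compare levels between genes. Per length all phosphatase genes summed to 1180 and 1171 RPKM in KO 1 and KO 2, against 908 to 1004 RPKM in WT. There Ptpn6 rose from 78.8 to 147 RPKM by the means and Ptpn14 from 1.51 to 37.1 RPKM, so the order of the shares depends on the unit.

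**Figure D3:**
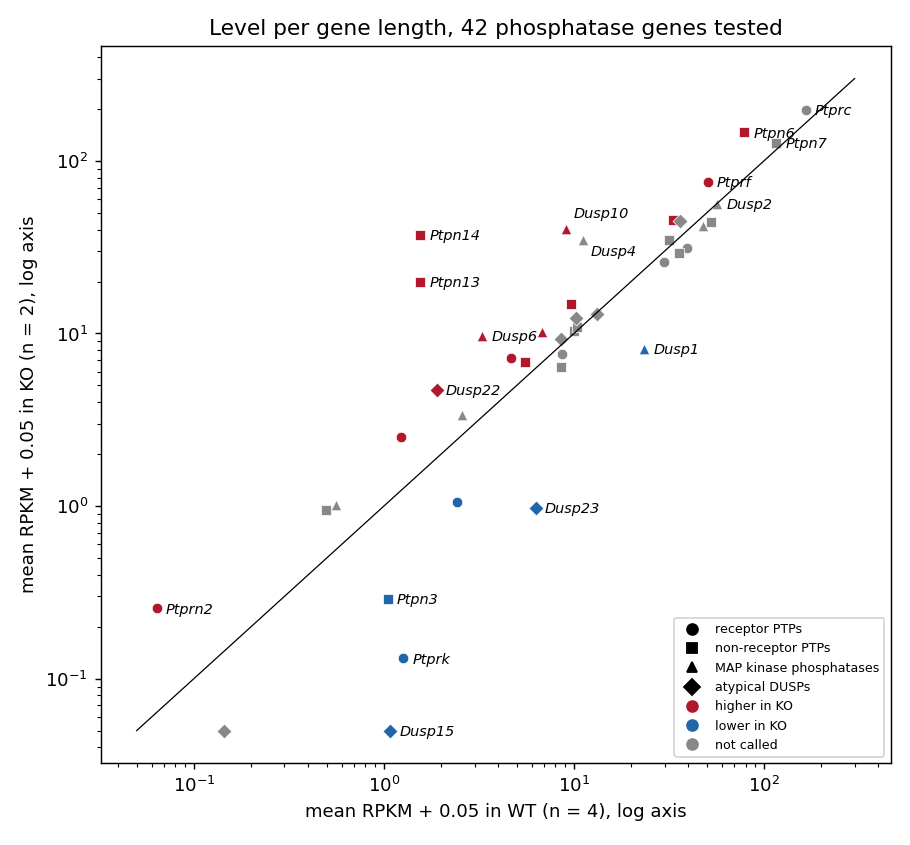
Mean level per gene length in KO (y axis, 2 mice) against WT (x axis, 4 mice) for the 42 tested phosphatase genes, as RPKM + 0.05 on log axes. Marker shape gives the class and colour the call, and the line marks equal levels. Ptpn14 and Ptpn13 stand far above the line from a WT level near 1.5 RPKM, and Dusp1 and Dusp23 stand below it.

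Among the 21 receptor-type phosphatases, 10 were tested, of which 4 rose and 2 fell. The class summed to 2008 and 2262 CPM in KO 1 and KO 2, against 1751 to 2009 CPM in WT, so the groups overlapped. Ptprc itself had 917 and 1325 CPM in KO 1 and KO 2, against 919, 909, 922 and 1018 CPM in WT 1 to 4. KO 1 thus lay inside the WT range and KO 2 above it, and the gene did not pass (log2 0.27, SE 0.151, adjusted p = 0.235). KO 2 also had the higher sums of B-cell and αβ T-cell markers, and KO 1 the higher sum of γδ T-cell markers. A link between these sums and Ptprc was not tested.

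Ptprf, which encodes the adhesion-type receptor LAR (chromosome 4, 118208213 to 118291405), had 604 and 555 CPM in KO 1 and KO 2, against 370.2, 362, 363 and 451 CPM in WT 1 to 4. Both KO libraries lay above every WT library, and it rose 1.45-fold (log2 0.53, SE 0.0686, adjusted p = 0.0049). Ptprj (CD148), which acts on Src-family kinases beside CD45, had 56.3 and 62.2 CPM in KO 1 and KO 2, against 40.2, 37.9, 38.0 and 36.6 CPM in WT. It rose 1.58-fold without overlap (log2 0.66, SE 0.0745, adjusted p = 0.00331). With a weight per genotype the call of Ptprj was lost (adjusted p = 0.0657) and that of Ptprf was kept (adjusted p = 0.0231).

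Ptprk, an adhesion-type receptor whose loss in the LEC rat goes with a lack of CD4 T cells, was nearly absent from KO. It stood at 0.256 and 0.746 CPM in KO 1 and KO 2, against 7.03, 8.23, 8.82 and 5.94 CPM in WT (log2 -3.83, SE 0.356, adjusted p = 0.00184). It was 14.3-fold lower in KO, with a log2 change of -4.52 without KO 2, and the call was lost with a weight per genotype (adjusted p = 0.202). Ptprn, which encodes a catalytically inactive protein of secretory granules, had 2.51 and 4.63 CPM in KO 1 and KO 2, against 8.11, 7.56, 7.82 and 10.2 CPM in WT. It fell without overlap (log2 -1.25, SE 0.324, adjusted p = 0.0392). The call of Ptprn was lost without WT 1, WT 2 or WT 3 (adjusted p = 0.116, 0.1 and 0.105), and its log2 change was -2.03 without KO 2.

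The other called receptor genes were at low levels. Ptprn2, the relative of Ptprn, had 33 counts in KO and 7 in WT, or 1.18 and 0.746 CPM in KO 1 and KO 2 against 0 to 0.141 CPM in WT (log2 3.67, SE 0.847, adjusted p = 0.0282). Its call was lost without WT 1, WT 2 or WT 3 (adjusted p = 0.0526, 0.0779 and 0.0996). Its log2 change was 3.01 without KO 2. It was 4.32 without KO 1 and 4.30 without WT 4, which made the same comparison. Ptprn2 overlaps other genes in the annotation, among them the long non-coding RNA genes Gm5441 (43647 bases) and Gm10421 (6747 bases). Whether any of its counts came from them was not tested. Ptprv, annotated as a transcribed pseudogene in the RefSeq table, had 22.0 and 7.91 CPM in KO 1 and KO 2, against 5.36, 6.27, 5.75 and 11.2 CPM in WT. The groups overlapped, and its call (log2 0.67, SE 0.188, adjusted p = 0.0476) was lost without WT 1, WT 2 or WT 3 (adjusted p = 0.132, 0.102 and 0.13). Ptprv overlaps Ptpn7 by 738 bases in the annotation, and reads of the 2 genes there cannot be told apart without strand.

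Ptprs, Ptpra and Ptpre did not pass. Ptprs, a relative of Ptprf, had 293 and 145 CPM in KO 1 and KO 2, against 248 to 321 CPM in WT, so that KO 1 lay within WT and KO 2 below it (log2 -0.55, SE 0.175, adjusted p = 0.0669). Ptpra, an activator of Src-family kinases, was at 71.9 and 116 CPM, against 104 to 110.4 CPM in WT, with KO 1 below and KO 2 above that range. Ptpre was at 38.9 and 42.5 CPM, against 44.0 to 48.5 CPM in WT, below WT in both KO libraries but not called (adjusted p = 0.129). Of the 11 receptor genes too low to test, Ptprb, Ptprq, Ptprr, Ptprt and Ptprz1 had no count in any library. Ptpro was at 0 CPM in KO 1 and had 22 counts in KO 2 and 1 in WT, so its KO counts all came from 1 mouse. The ratio of pooled KO over WT was 80.1 with an exact 95% interval of 12.9 to 3305. That interval covers counting error and not the spread between mice, so it does not speak for the genotype. Ptpru had no count in KO and 35 in WT, which puts it at least 3.21-fold lower in KO against 3 counts over the KO group.

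Of the 17 non-receptor phosphatases, 15 were tested. Of these, 6 rose and 1 fell, and the class summed to 2298 and 1966 CPM in KO 1 and KO 2, against 1311 to 1355 CPM in WT. Ptpn14, a FERM-domain phosphatase known to restrain the co-activator YAP (chromosome 1, 189728216 to 189876695), had 439 and 359.6 CPM in KO 1 and KO 2, against 15.9, 15.4, 16.6 and 16.9 CPM in WT. It rose 23.8-fold (log2 4.57, SE 0.0790, adjusted p = 3.12e-05), with both KO libraries far above a narrow WT range. Ptpn13, a large phosphatase with FERM and PDZ domains (chromosome 5, 103425192 to 103598361), had 164 and 166 CPM in KO 1 and KO 2, against 10.7, 10.9, 10.4 and 17.8 CPM in WT. It rose 12.7-fold (log2 3.67, SE 0.169, adjusted p = 0.00031). The calls of both genes were kept under all 12 alternatives tried.

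The other FERM-domain members gave 1 fall, 1 rise and 1 gene without a call. Ptpn3, with FERM and PDZ domains, had 0.819 and 2.24 CPM in KO 1 and KO 2, against 7.22, 6.02, 5.94 and 6.36 CPM in WT. It was 4.15-fold lower (log2 -2.05, SE 0.391, adjusted p = 0.0165), with a log2 change of -2.96 without KO 2. Its call was lost without WT 1, WT 2 or WT 3 (adjusted p = 0.0706, 0.0581 and 0.0561). Ptpn4, its closest relative, had 21.4 and 42.4 CPM in KO 1 and KO 2, against 30.5, 28.3, 26.9 and 17.8 CPM in WT, with overlap. It was called higher in the model with sex (log2 0.45, SE 0.114, adjusted p = 0.0363), but not without the sex term (adjusted p = 0.515). Nor was it called without WT 1, WT 2 or WT 3 (adjusted p = 0.104, 0.121 and 0.113). Its log2 change was 0.25 without KO 2 and 0.58 without KO 1. Ptpn21, the relative of Ptpn14, had 8.03 and 2.31 CPM in KO 1 and KO 2, against 1.79 to 3.22 CPM in WT, and did not pass (adjusted p = 0.382).

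**Figure D4:**
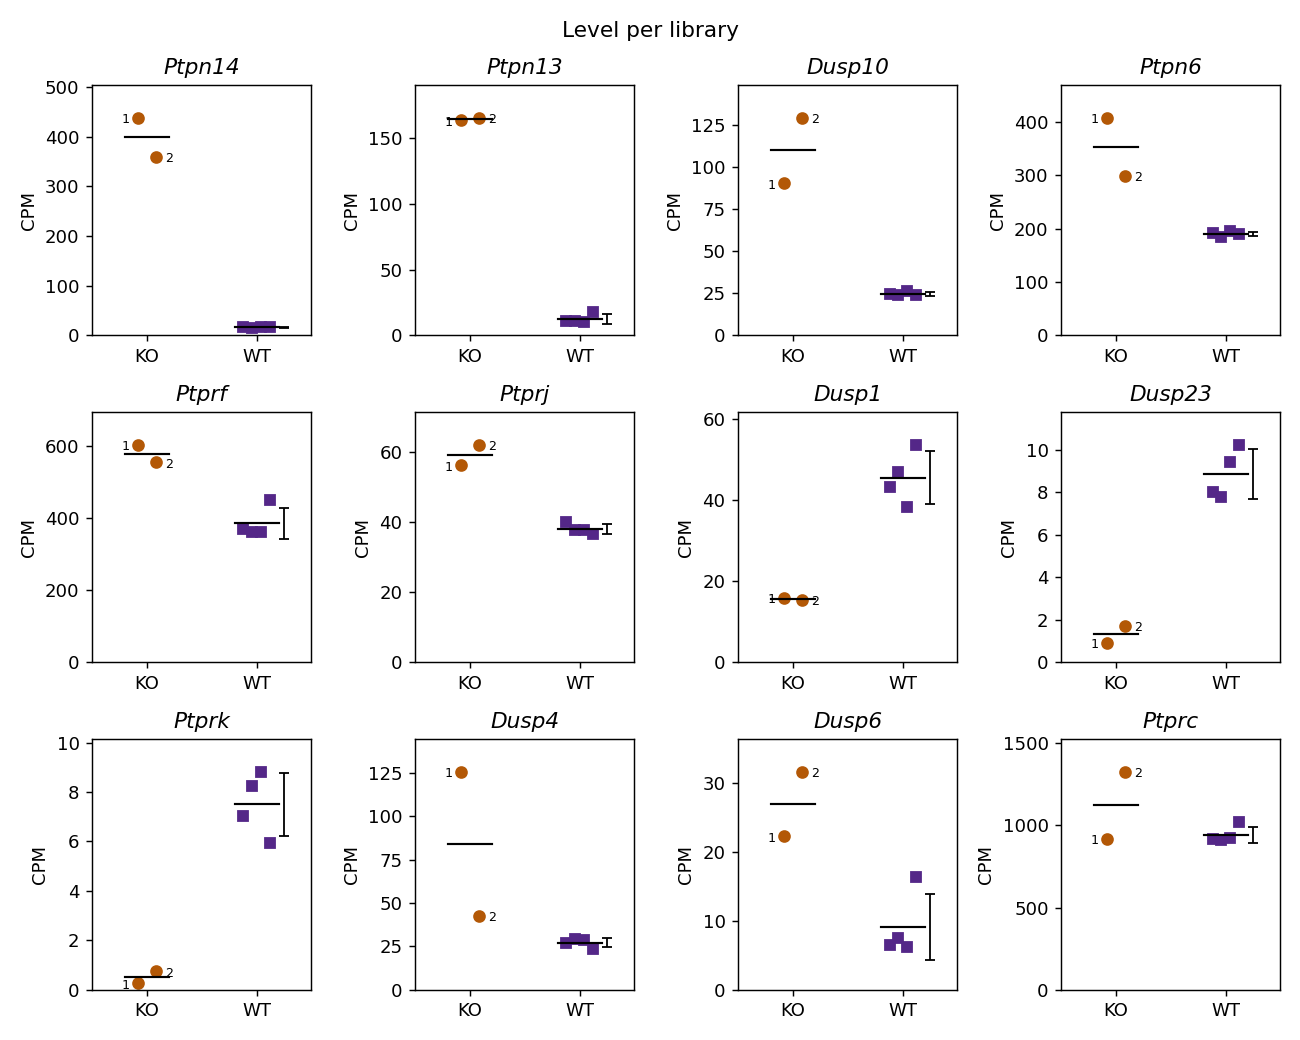
CPM of 12 phosphatase genes in each library, with KO (orange circles, numbered by mouse) left of WT (purple squares, WT 1 to WT 4 from left to right). Horizontal lines are group means and the bar beside WT is its SD (n = 4). Ptpn14, Ptpn13, Dusp10 and Ptpn6 have both KO mice above all WT mice, Dusp1, Dusp23 and Ptprk have both below, and Dusp4 and Ptprc show KO mice that differ from each other.

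Ptpn6, which encodes SHP-1, an inhibitor of antigen receptor signals (chromosome 6, 124720707 to 124738709), had 408 and 299 CPM in KO 1 and KO 2, against 192, 184, 195 and 189.6 CPM in WT. It rose 1.79-fold without overlap (log2 0.84, SE 0.114, adjusted p = 0.00603). Ptpn11, which encodes SHP-2, a positive regulator of the Ras and ERK pathway, had 199 and 193 CPM in KO, against 183, 177, 174 and 172 CPM in WT. Both KO libraries lay above WT, but by 1.11-fold only, and it was not called (log2 0.16, SE 0.0654, adjusted p = 0.129). It was called by DESeq2 (adjusted p = 0.0408). Its log2 change was 0.20 without KO 2. It was 0.13 without KO 1 and 0.12 without WT 4, which made the same comparison.

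Ptpn1 (PTP1B), which acts on the insulin receptor and JAK2, had 186 and 196 CPM in KO 1 and KO 2, against 146, 140.2, 138 and 133 CPM in WT. It rose 1.39-fold (log2 0.48, SE 0.0633, adjusted p = 0.00539). Ptpn9, a vesicle-associated phosphatase with a Sec14 domain, was at 61.8 and 57.6 CPM, against 39.2, 39.1, 38.8 and 38.5 CPM in WT, and rose 1.53-fold (log2 0.61, SE 0.0739, adjusted p = 0.00405). Neither overlapped WT, and neither kept its call with a weight per genotype (adjusted p = 0.0748 for Ptpn1 and 0.0614 for Ptpn9). Ptpn9 shares 5912 bases with the long non-coding RNA gene Gm10658 in the annotation.

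Ptpn22, Ptpn2 and Ptpn7, regulators of antigen receptor, cytokine and ERK signals in lymphocytes, were not called. Ptpn22 had 64.9 and 94.1 CPM in KO 1 and KO 2, against 97.1, 97.1, 92.9 and 103 CPM in WT, with KO 1 below WT and KO 2 inside it (log2 -0.28, SE 0.151, adjusted p = 0.221). Ptpn2 was at 97.2 and 76.6 CPM, against 84.8, 86.1, 81.5 and 84.3 CPM in WT, with 1 KO library on each side of that range (adjusted p = 0.976). Ptpn7 (HePTP), which inactivates ERK and p38 in lymphocytes, was at 504 and 324 CPM, against 386, 363, 371 and 394 CPM in WT, again with 1 KO library on each side (log2 0.03, SE 0.137, adjusted p = 0.901). Ptpn12 was at 8.34 and 31.6 CPM, against 25.1 to 29.9 CPM in WT, Ptpn18 at 68.8 and 71.4 CPM, against 78.4 to 89.9 CPM, and Ptpn23 at 67.2 and 48.6 CPM, against 51.3 to 59.9 CPM. Ptpn5 and Ptpn20 had no count.

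Of the 10 MAP kinase phosphatases, 9 were tested, 3 rose and 1 fell. The class summed to 431 and 426 CPM in KO 1 and KO 2, against 262 to 332 CPM in WT. Dusp10, which acts on JNK and p38 (chromosome 1, 184034381 to 184075636), had 90.2 and 129 CPM in KO 1 and KO 2, against 24.7, 23.7, 26.4 and 23.7 CPM in WT. It rose 4.60-fold (log2 2.20, SE 0.118, adjusted p = 0.000434), and its call was kept under all 12 alternatives. Dusp16, of the same JNK and p38 group, was at 20.6 and 13.5 CPM, against 14.0, 13.1, 13.6 and 10.6 CPM in WT, with overlap and no call (adjusted p = 0.268). Dusp8, also of that group, had 0 counts in KO and 5 in WT and was not tested.

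Dusp1, an immediate-early gene whose product acts on p38 and JNK in the nucleus, moved the other way. It had 15.9 and 15.4 CPM in KO 1 and KO 2, against 43.2, 46.9, 38.3 and 53.6 CPM in WT, with no overlap. Its log2 change was -1.59 (SE 0.135, adjusted p = 0.00152), and its call was kept under all 12 alternatives (adjusted p up to 0.0463). The upstream sequence of Dusp1 is shown because it was the only called member with a full cyclic AMP response element in its promoter window. It is the 250 bases before the RefSeq start on GRCm38.p6, chr17:26508473-26508722, minus strand, with the element in capitals:
Dusp1: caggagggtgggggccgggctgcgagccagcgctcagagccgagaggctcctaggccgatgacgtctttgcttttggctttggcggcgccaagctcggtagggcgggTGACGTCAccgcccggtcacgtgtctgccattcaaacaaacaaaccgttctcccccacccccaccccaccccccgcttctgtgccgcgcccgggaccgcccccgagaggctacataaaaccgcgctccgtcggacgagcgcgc

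Among the cytoplasmic phosphatases specific for ERK, Dusp7 had 33.1 and 32.3 CPM in KO 1 and KO 2, against 22.3, 21.8, 21.8 and 20.8 CPM in WT. It rose 1.52-fold without overlap (log2 0.60, SE 0.0913, adjusted p = 0.00815), a call lost with a weight per genotype (adjusted p = 0.165). Dusp6, a feedback gene of ERK signalling, was at 22.2 and 31.6 CPM, against 6.45, 7.52, 6.17 and 16.3 CPM in WT. Both KO libraries lay above WT, but WT 4 stood at more than the other WT libraries (log2 1.57, SE 0.382, adjusted p = 0.0332). The Dusp6 call was lost without WT 1, WT 2 or WT 3 (adjusted p = 0.107, 0.103 and 0.101). Its log2 change was 0.44 without KO 2, a fit that set KO 1 against the high WT 4. It was 2.26 without KO 1 and 2.24 without WT 4, which made the same comparison. Dusp9, an X-linked relative, was at 3.99 and 1.19 CPM, against 1.09 to 1.88 CPM in WT, and did not pass.

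The nuclear, inducible Dusp2, Dusp4 and Dusp5 were not called. Dusp4 had 126 and 42.8 CPM in KO 1 and KO 2, against 27.2, 29.0, 28.6 and 23.3 CPM in WT, above WT in both, with KO 1 far above KO 2 (log2 1.39, SE 0.422, adjusted p = 0.0600). It was called with a weight per genotype (adjusted p = 0.0188), without the sex term (0.0184) and by DESeq2 (0.00169), but not without WT 1, WT 2 or WT 3 (0.129, 0.122 and 0.125). The Dusp4 log2 change was 2.42 without KO 2. It was 0.62 without KO 1 and 0.60 without WT 4, which made the same comparison. Dusp2 was at 76.6 and 106 CPM, against 80.7, 82.6, 73.8 and 129.6 CPM in WT, with overlap (adjusted p = 0.95). Dusp5, specific for ERK, was at 42.8 and 54.1 CPM, against 60.8, 56.2, 51.6 and 53.3 CPM in WT (adjusted p = 0.316).

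Of the 14 atypical dual-specificity phosphatases, which lack the MAP kinase binding domain, 8 were tested, 1 rose and 2 fell. The class summed to 299 and 408 CPM in KO 1 and KO 2, against 294 to 297 CPM in WT, and most of those CPM were of Dusp11, a long gene. Per length Dusp11 had 35.6 to 36.6 RPKM in WT, against 75.9 to 78.2 RPKM for the class. Dusp22 (JKAP), reported to inactivate Lck, had 11.7 and 14.0 CPM in KO 1 and KO 2, against 5.67, 5.60, 4.56 and 4.57 CPM in WT. It rose 2.62-fold without overlap (log2 1.39, SE 0.176, adjusted p = 0.00463), and missed the threshold with a weight per genotype (adjusted p = 0.0636). Dusp23, a small phosphatase with little beside its catalytic domain, was at 0.921 and 1.72 CPM, against 7.99, 7.77, 9.43 and 10.2 CPM in WT. It was 6.80-fold lower (log2 -2.76, SE 0.344, adjusted p = 0.0047), with a log2 change of -3.48 without KO 2, and its call was lost with a weight per genotype (adjusted p = 0.145).

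Dusp15 was not counted in KO 1 or KO 2 and had 3.50, 3.05, 3.14 and 4.11 CPM in WT. By pooled counts (417 in WT) it was at least 38.2-fold lower in KO, taking 3 counts over the KO group as the floor (adjusted p = 0.00198, and 0.0915 with a weight per genotype). Dusp15 shares 1355 bases with Ttll9 in the annotation. Dusp18 also had no KO count, and with 53 counts in WT, at least 4.85-fold lower in KO, it was not called (adjusted p = 0.0952). Dusp11, which acts on RNA 5' ends, had 235 and 344 CPM in KO 1 and KO 2, against 229 to 236 CPM in WT, with KO 1 inside the WT range (adjusted p = 0.0823). Dusp12, Dusp19 and Dusp28 lay between 11.0 and 21.5 CPM in KO and between 11.8 and 19.1 CPM in WT, with no call. Dusp21 and Dusp26 had no count in any library, and Dusp3, Dusp13, Dusp14 and Dusp27 had at most 13 counts in any library.

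Genes around the phosphatases were taken from lists that also hold unmoved genes, and 30.7% of all genes were called. Of 26 tested genes of the Ras and MAP kinase cascade, 4 rose, 2 fell and 20 were not called. Rasgrp1, the exchange factor that couples the T-cell receptor to Ras, rose to 544 and 527 CPM in KO 1 and KO 2, against 187 ± 10.4 CPM in WT (SD, n = 4, log2 1.53, adjusted p = 0.000319). The scaffold Ksr1 rose to 43.3 and 26.2 CPM, against 19.4 ± 0.671 CPM in WT. Nf1, an inactivator of Ras, fell to 57.4 and 61.2 CPM, against 79.0 ± 3.97 CPM in WT. Nras was at 207 and 207 CPM, against 181 ± 10.3 CPM in WT, and did not pass.

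Of 11 tested feedback genes of ERK signalling other than phosphatases, 7 rose and 3 fell. Il17rd, an inhibitor of receptor tyrosine kinase signals, rose to 19.3 and 17.1 CPM in KO 1 and KO 2, against 0.876 ± 0.0622 CPM in WT. Etv5, an ETS factor induced by ERK, rose to 295 and 120.5 CPM, against 19.9 ± 1.24 CPM in WT, and Phlda1 to 58.0 and 51.3 CPM, against 3.72 ± 1.66 CPM. Spry2, an inhibitor of Ras signalling, fell to 1.18 and 0.373 CPM, against 6.25 ± 1.24 CPM in WT. Errfi1 alone was not called, at 2.61 and 15.4 CPM, against 9.84 ± 1.42 CPM in WT.

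Of 24 kinases and adaptors that tyrosine phosphatases act on, all tested, 7 rose and 4 fell. Zap70, the kinase recruited to the receptor, rose to 424 and 323 CPM in KO 1 and KO 2, against 75.8 ± 1.59 CPM in WT (log2 2.26, adjusted p = 0.000324). Fyn rose to 261 and 207 CPM, against 90.2 ± 5.29 CPM in WT. Cblb, a ubiquitin ligase that limits receptor signals, fell to 128 and 97.6 CPM, against 244 ± 15.9 CPM in WT. Lat, at 694 and 529 CPM, against 569.7 ± 35.8 CPM in WT, and Jak1, at 434 and 689 CPM, against 525 ± 17.3 CPM, were not called.

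Of 17 tested receptors and adaptors that recruit SHP-1 or SHP-2, 7 rose and 4 fell. The inhibitory receptor Btla rose to 16.9 and 47.5 CPM in KO 1 and KO 2, against 1.30 ± 0.203 CPM in WT, and Cd22, which is also a B-cell marker, to 6.29 and 25.2 CPM, against 1 count in all of WT. The docking adaptor Gab1 fell to 0 and 1.04 CPM, against 9.62 ± 0.839 CPM in WT, and Gab2 had no KO count, against 6.31 ± 1.33 CPM in WT. Themis, which holds SHP-1 at the receptor complex, was at 153 and 414 CPM, against 389.6 ± 18.3 CPM in WT, and Frs2 at 36.4 and 71.1 CPM, against 55.5 ± 3.24 CPM, and neither passed.

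Of 34 tested phosphatases of related families, 9 rose and 9 fell. Cdc25b, an activator of cyclin-dependent kinases, rose to 262 and 143 CPM in KO 1 and KO 2, against 45.0 ± 3.82 CPM in WT, and Cdc14b to 15.2 and 10.2 CPM, against 3.45 ± 0.851 CPM. Ptpdc1 fell to 0.563 and 1.34 CPM, against 11.8 ± 0.814 CPM in WT, and Ssh1, an activator of cofilin, to 1.38 and 1.57 CPM, against 6.62 ± 1.18 CPM. Ptp4a2, at 379 and 615 CPM, against 591 ± 14.8 CPM in WT, was not called.

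RefSeq promoter windows, which run from 250 bases before to 50 bases after a start on GRCm38.p6, were at hand for 50 of the 62 genes, in 67 windows. The core of the TCF/LEF motif, CTTTGA on either strand, was found in 3 of these 67 windows (4.48%), where 16.0% of all 32851 windows hold it. None of the 13 risen and none of the 5 fallen members with a window held it. The 3 matches were in Ptprc, Ptpn7 and Dusp27. The cyclic AMP response element TGACGTCA was found in 5 of 67 windows (7.46%), where 1.79% of all windows hold it, in Dusp1, Dusp8, Ptpn11, Ptprs and Ptpru. The shorter core TGACG was in 35.8% of the windows (20.8% of all), the AP-1 motif TGANTCA in 4.48% (7.81%), the E-box CAGNTG in 46.3% (51.4%) and the EGR-like motif GNGGGNG in 80.6% (64.7%), each on either strand. Every full element also holds the shorter core. That core was in all 5 fallen members with a window, in 3 of the 13 risen ones and in 10 of the 17 tested but not called. By gene, it was in 44.0% of the members with a window and in 23.0% of all genes with one. These are matches of letters within the windows only, and no binding was measured.

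Ptprc and Ptpn11 are shown as the most highly expressed members whose TCF/LEF core (Ptprc) or cyclic AMP response element (Ptpn11), in capitals, lies in the 250 bases before the start. In Ptprs and Ptpn7 the match lies after the start. They are chr1:138175306-138175555 and chr5:121191398-121191647 of GRCm38.p6, both on the minus strand. Neither gene was called, and the match begins 88 bases before the start used here in Ptprc and 67 bases before that in Ptpn11. The Ptprc window of another RefSeq start (chr1:138175077-138175376) does not hold the TCF/LEF core.
Ptprc: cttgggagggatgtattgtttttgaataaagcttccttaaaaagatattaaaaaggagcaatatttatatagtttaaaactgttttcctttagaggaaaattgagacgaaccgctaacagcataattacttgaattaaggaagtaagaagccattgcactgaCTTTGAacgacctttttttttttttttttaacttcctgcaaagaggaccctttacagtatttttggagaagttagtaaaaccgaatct
Ptpn11: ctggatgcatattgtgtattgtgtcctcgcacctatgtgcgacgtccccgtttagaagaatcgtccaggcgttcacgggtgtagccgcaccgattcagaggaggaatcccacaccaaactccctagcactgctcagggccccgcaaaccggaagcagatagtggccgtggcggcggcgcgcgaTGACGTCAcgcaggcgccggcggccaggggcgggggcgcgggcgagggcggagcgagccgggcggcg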

How the data were processed

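RNA was purified from lysed sorted cells, amplified with the SMART-Seq v4 kit for low inputs and read as paired ends, per the labels' protocols. Each deposited table holds raw counts by Entrez gene, made by the authors with featureCounts on mm10, per the submitters' processing notes. An aligner, tool versions or a strand setting were not given in the sources used here. This kit does not mark strand, and 10 of the tested members overlap another gene of the table. Symbols and coordinates came from a RefSeq table of GRCm38.p6, which named 25275 of the identifiers. 0 count columns were left unmapped.

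Tests used edgeR 4.0.16 under R 4.3.3. filterByExpr with a count minimum of 10 left 13294 genes, TMM factors scaled the libraries, and a robust quasi-likelihood F-test compared KO with WT with sex as an additive term (3 residual degrees of freedom). p-values were adjusted by Benjamini-Hochberg over all genes tested and called under 0.05. The standard error is the log2 fold change divided by the square root of F. A group at 0 is given as a bound against 3 counts over that group, and intervals (95%) cover counting error only. DESeq2 1.42.0, limma 3.58.1 with a weight per genotype and 10 other alternatives were run. Replicates differed by more than counting noise (chi-square per degree of freedom 3.37 to 23.1 in WT and 104 between the KO libraries) and each counts as 1 sample. The tests were tried first on simulated counts in which KO and WT varied alike. That trial does not cover the wider spread between the KO libraries.

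The members, the 5 lists of related genes, the marker lists, the named genes (every called member, 15 lymphocyte regulators, and of each related list up to 4 called genes with the largest fold at 5 CPM or more and the 2 uncalled with the highest level) and the motifs were chosen with earlier results of these data known. Of the related genes that this rule names, 4 are not reported here.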

Additional observations from a re-analysis of the deposited data

Results flagged for a closer look

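In 7 of the 42 tested members 1 WT library stood apart from the other 3 by Dixon's criterion, which chance alone meets in about 1 of 20 groups. The share over all genes was not taken. Over the whole table WT 4 was the WT library farthest from the others. Its chi-square per degree of freedom was 15.9 to 23.1 against WT 1, WT 2 and WT 3, which were 3.37 to 5.11 from each other. As WT 4 is the only WT male, its sex and the mouse cannot be told apart. WT 4, the male, was the high library in 6 of them, with 129.6 CPM of Dusp2 (73.8 to 82.6 in the others), 16.3 of Dusp6 (6.17 to 7.52), 17.8 of Ptpn13 (10.4 to 10.9), 1018 of Ptprc (909 to 922), 451 of Ptprf (362 to 370.2) and 11.2 of Ptprv (5.36 to 6.27). WT 1 stood apart for Dusp11, at 236 CPM against 229 to 230.1 CPM.

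The KO effect differed between males and females by edgeR's interaction term in 24 of the 42 tested members, 57.1%, where 54.7% of all genes did. With 1 KO mouse of each sex, the sex and the mouse cannot be told apart, and the spread in that fit comes from the WT females alone (2 residual degrees of freedom). The male minus female difference in log2 was positive for Ptpn21 (2.45), Dusp9 (1.87), Dusp4 (1.83), Dusp16 (0.96), Dusp12 (0.78), Ptprs (0.72), Ptpn7 (0.56), Ptpn6 (0.45), Ptpn2 (0.34) and Ptpn23 (0.31). It was negative for Ptpn12 (-2.14), Dusp6 (-1.79), Ptpn3 (-1.43), Ptprn (-1.26), Dusp2 (-1.19), Dusp23 (-1.18), Dusp28 (-0.81), Ptpn13 (-0.76), Ptpra (-0.74), Ptprc (-0.68), Ptpn22 (-0.64), Dusp11 (-0.53), Dusp10 (-0.45) and Ptprf (-0.18).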

How the results depend on the processing

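Of the 20 called phosphatase genes, Ptpn14, Ptpn13, Dusp10 and Dusp1 kept their call and direction under all 12 alternatives. No called gene turned its direction under any of them. With limma-voom and a weight per genotype 6 members rose and 1 fell (987 and 513 of all genes), and the rises there include Dusp4, which is not among the 20. Leaving out 1 library gave 10 to 23 rises and 4 to 16 falls among the members (881 to 4321 and 784 to 5152 over all genes). DESeq2's test, its size factors, no low-count filter and no sex term gave 13 to 17 rises and 6 to 9 falls. The labels share replicate numbers across genotypes but say that each mouse is its own sample. The deviations of the pairs with the same number correlated at -0.11 and 0.033. With 2 KO libraries centred on their own mean, the deviations of KO 2 are those of KO 1 with the sign turned. These correlations therefore cannot decide whether the numbers mark pairs. With the replicate number as a block (no sex term) 4 members rose and 3 fell (413 and 335 over all genes). That fit, with few residual degrees of freedom, kept 7 of the 20 calls and ended, among others, that of Ptpn6 (adjusted p = 0.0515). Only WT 1 and WT 2 share a number with a KO library. The block fit in effect compared KO 1, a male, with WT 1, a female, and KO 2 with WT 2, both female. Both KO libraries were shallower than any WT library, so 3 counts correspond to 0.154 and 0.224 CPM in KO 1 and KO 2 and to at most 0.125 CPM in WT.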
